A study of Mus musculus with 8 samples.

Results

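Voltage-gated calcium channels were examined through 9 subunit genes that the array measures in the heart: the L-type pore subunits Cacna1c and Cacna1d, the T-type pore subunits Cacna1g and Cacna1h, the beta subunits Cacnb1, Cacnb2 and Cacnb3, and the alpha2delta subunits Cacna2d1 and Cacna2d2. Every non-control probe whose transcript accession belongs to 1 of these genes was kept, with no choice by signal, which gave 21 of the 41174 probes and 9 of the 19096 named genes of the array. RNA came from whole hearts of mouse embryos at E18.5 on a C57BL/6 background, from 4 WT embryos and 4 embryos with a whole-body germ-line deletion of Sirt1 (SIRT1 KO), all with a chow diet in the labels. Each heart was hybridized to its own one-color Agilent array. The deletion was present in every cell type of the embryo and from conception onwards, so the design does not separate what cardiomyocytes did from what other cells did, and in whole-heart RNA fewer cells of a type and less RNA per cell cannot be told apart. The study asked which transcripts differ between WT and SIRT1 KO hearts shortly before birth.

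A voltage-gated calcium channel opens when the membrane depolarizes and lets calcium into the cell. The alpha1 subunit forms the pore and senses the voltage. L-type channels need strong depolarization and stay open long enough to trigger calcium release from the sarcoplasmic reticulum, which starts contraction, whereas T-type channels open near the resting potential, close quickly, and contribute to pacemaking. T-type current is a feature of the embryonic ventricle that largely fades after birth and persists in nodal cells. The beta subunit sits on the cytoplasmic side, brings L-type alpha1 subunits to the membrane and tunes their gating, and the alpha2delta subunit is extracellular and raises the number of channels at the surface.

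The deleted gene was measured first. Sirt1 has 2 probes, and neither was lower in the arrays labelled SIRT1 KO beyond the spread. On Sirt1 probe A_52_P358612 the log2 signal relative to the array's 75th percentile was -0.14, 0.32, 0.00 and 0.00 in WT hearts 1 to 4 and 0.64, 0.50, 0.43 and 0.75 in the hearts labelled SIRT1 KO. This probe passed the threshold as higher in the latter (log2 fold change 0.54, SE 0.11, limma adjusted p = 0.0323), and it stayed past it in 2 of the 8 fits that left out 1 array, those without WT heart 2 or without SIRT1 KO heart 3. It also lost its call with median scaling (adjusted p = 0.0621), without scaling (0.117), without the filter on dim probes (0.0679), in the analysis of variance (0.0865) and with the replicate number as a block (0.0644). Probe A_51_P141152 differed by -0.11 (SE 0.11, adjusted p = 0.589). The difference between these probes, -0.65 (SE 0.11, adjusted p = 0.0273), passed over all pairs of probes of one gene. The position of these probes relative to the deleted part of the gene is not given in the sources used here, so they do not check the genotype, which rests on the labels, and every direction given here is that of the hearts labelled SIRT1 KO.

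The share of probes well above background ran from 59.5% to 64.9% over the arrays, and saturation was found on none. The 75th percentile of intensity was 939 to 1033 for WT and 777 to 906 for SIRT1 KO. All 4 WT arrays were on one slide and all 4 SIRT1 KO arrays on another with its own scan day, so neither slide nor scan can be told apart from genotype in any value that follows. Precision is limited by having only 4 arrays of each genotype. A probe was tested if 4 or more arrays showed it well above background, which held for 25615 probes. Of these 1250 passed an adjusted p of 0.05 (4.88%), 1017 of them as higher in SIRT1 KO (3.97%). The share of calls that were higher was 81.4% here, 38.1% with median scaling and 10.1% without scaling.

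Of the 21 channel probes, 16 were tested and every one of the 9 genes kept at least 1. The 5 probes not tested were 3 of the 4 Cacna1d probes, which no array showed well above background, and 1 probe each of Cacna1h and Cacna2d2, well above background on 1 SIRT1 KO array. On all 8 arrays, 15 of the 16 tested probes were well above background. The exception was a dim probe of Cacna2d2 that reached this level in 2 WT and 4 SIRT1 KO hearts and so passed mostly through the group where it was brighter.

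The pore subunit probes had log2 fold changes of 0.28 to 0.76. The largest of these, for the T-type gene Cacna1g, was the 1 probe of the 16 that passed the threshold, against 4.88% of all tested probes. The 6 other pore probes did not pass. The range was 0.15 to 0.64 with median scaling and 0.06 to 0.55 without scaling. All 7 tested alpha1 probes had a positive difference (median 0.45), and on 6 of the 7 the 4 SIRT1 KO hearts lay entirely above the 4 WT hearts. Over all probes, 8.64% had SIRT1 KO hearts entirely above WT and 51.7% had a positive difference. The 4 beta probes were split, 2 positive and 2 negative (median 0.08), with overlapping genotypes on each. Of the 5 alpha2delta probes 4 were positive (median 0.21) and 1 did not overlap. In all, 13 of the 16 probes were positive. The genotypes did not overlap on 7, against 13.7% of all probes in either direction. An unadjusted limma p under 0.05 was found for 8, against 21.5% of all probes. The median difference was 0.31 over the 16 probes and 0.01 over all probes. Without the dim Cacna2d2 probe, which passed the filter mostly through its brighter group, 12 of 15 were positive, 7 did not overlap, 7 had an unadjusted p under 0.05 and the median was 0.28. These counts depend on the scaling. With the array median in place of the 75th percentile 3 of the 16 did not overlap, against 19.1% of all probes, 6 had an unadjusted p under 0.05, against 30.7%, and the median was 0.19. Without scaling 3 did not overlap, against 31.3%, 4 had an unadjusted p under 0.05, against 42.6%, and the median was 0.10. Probes of 1 gene read the same transcripts and are not independent of one another.

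**Figure D1:**
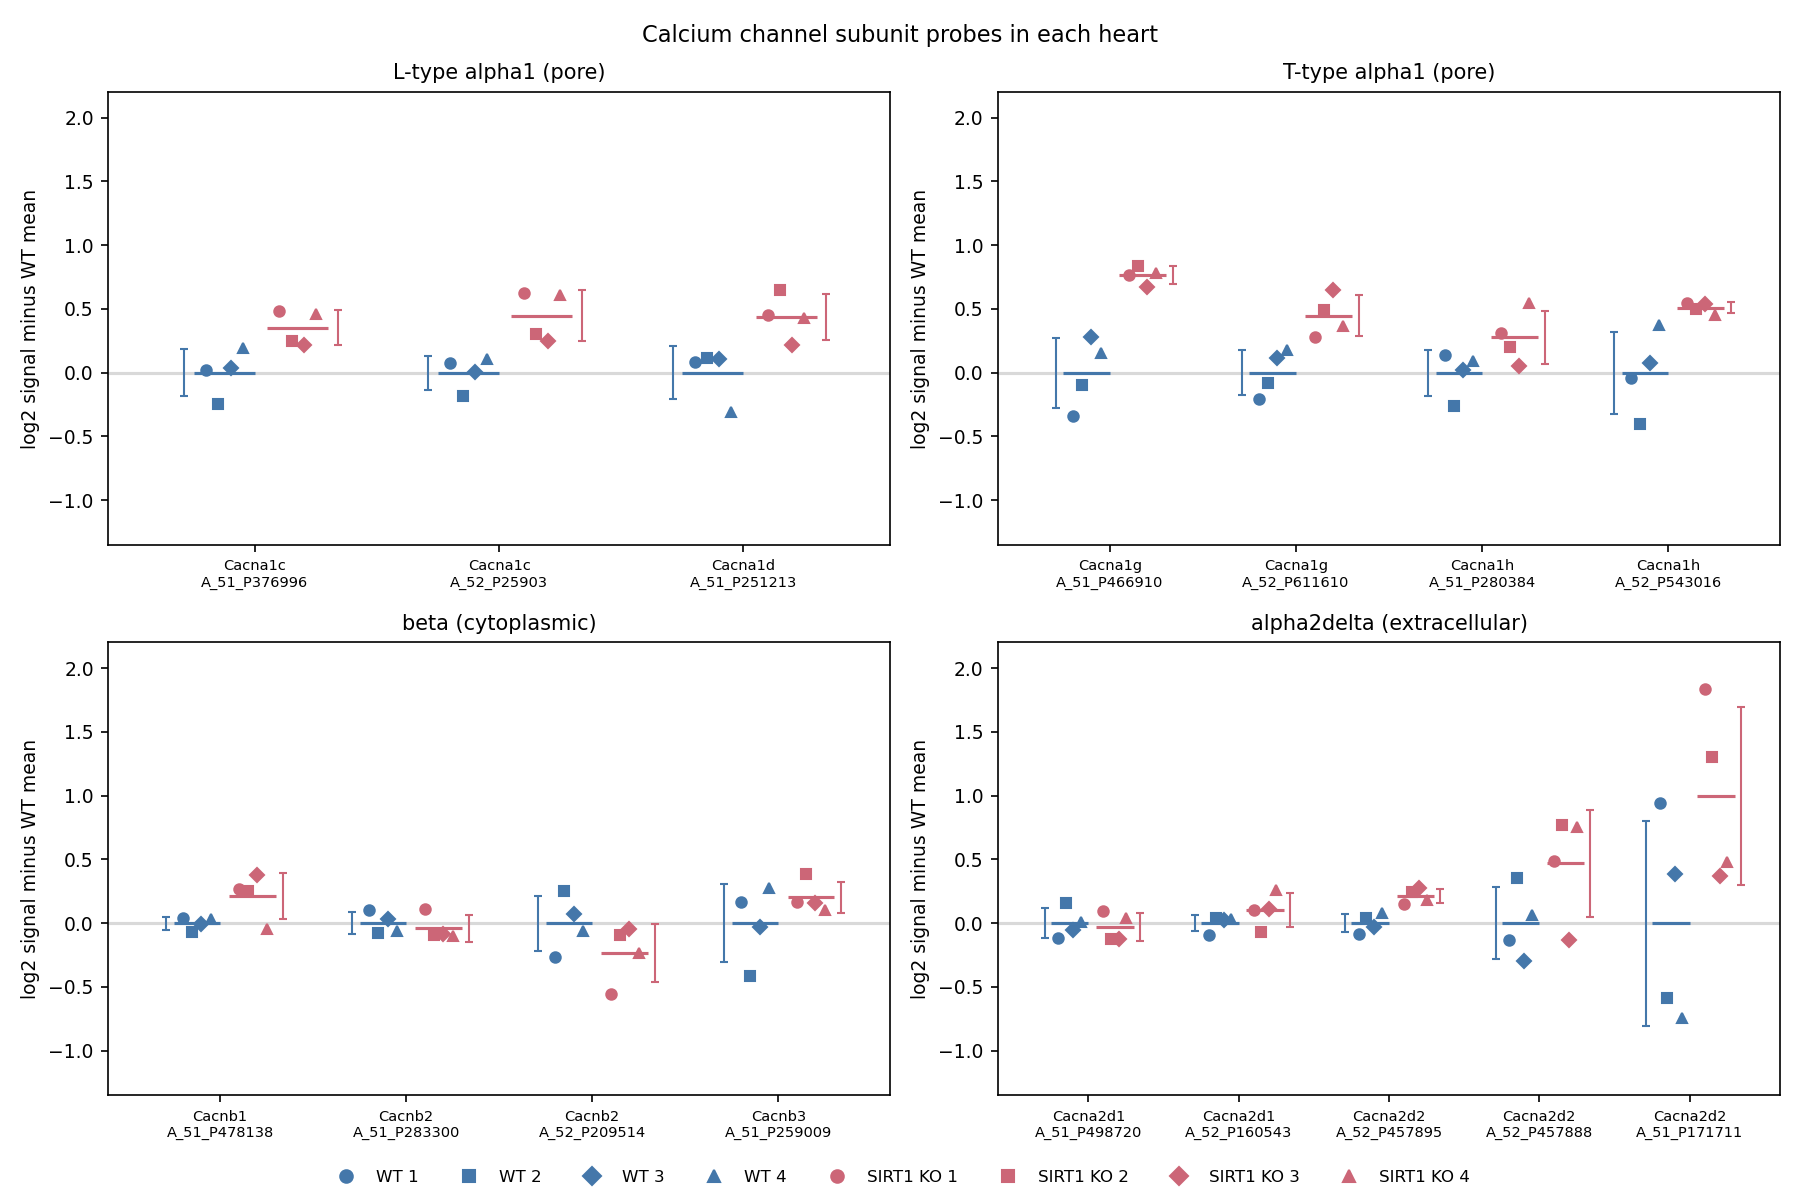
Log2 signal of each tested channel probe in each heart, minus that probe's WT mean, in 4 panels by subunit class. Symbols are single hearts (WT 1 to 4 in blue, SIRT1 KO 1 to 4 in red), horizontal lines are group means and bars are ± SD (n = 4 per genotype). The red symbols lie above the blue ones on 6 of the 7 alpha1 probes and mix with them on the 4 beta probes.

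Cacna1g encodes a T-type pore subunit found in the embryonic heart and in pacemaker cells. On its brighter probe, A_51_P466910, the log2 signal was 0.58, 0.82, 1.20 and 1.07 in WT hearts 1 to 4 and 1.69, 1.75, 1.59 and 1.70 in SIRT1 KO hearts 1 to 4. The lowest SIRT1 KO heart was above the highest WT heart, and the SIRT1 KO hearts were closer together (SD 0.07) than the WT hearts (SD 0.27). Cacna1g rose by a log2 fold change of 0.76 (SE 0.13, 95% confidence interval 0.47 to 1.06, limma adjusted p = 0.0127), and the exact two-sided permutation test gave p = 0.0286, the smallest it can give for 4 against 4. On a linear scale the SIRT1 KO mean was 1.68 ± 0.04 times the WT mean (SEM, n = 4). Leaving out 1 array at a time moved the difference between 0.65 and 0.86, and the probe passed in 8 of 8 such fits. The study's own kind of test, an analysis of variance with Benjamini-Hochberg adjustment, left it at an adjusted p of 0.0590, and 0 of the 16 channel probes passed by that test, against 2.13% of all probes. By the same test 7 of the 16 had an unadjusted p under 0.05, against 20.1% of all probes.

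The dimmer Cacna1g probe, A_52_P611610, gave -2.69, -2.57, -2.37 and -2.31 in WT hearts and -2.21, -2.00, -1.83 and -2.12 in SIRT1 KO hearts. The genotypes again did not overlap, though the lowest SIRT1 KO heart was only just above the highest WT heart. The difference was 0.45 (SE 0.11, adjusted p = 0.061), smaller than on the brighter probe by 0.32 (SE 0.12, 95% confidence interval 0.06 to 0.58), a difference between probes of one gene that did not pass the threshold over 6636 such pairs (adjusted p = 0.218).

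Cacna1h, the other T-type pore gene, has 2 tested probes. Its brighter probe, A_51_P280384, gave -0.86, -1.26, -0.98 and -0.91 in WT hearts and -0.69, -0.80, -0.95 and -0.45 in SIRT1 KO hearts. SIRT1 KO heart 3 fell inside the WT range, and the difference of 0.28 (SE 0.13, adjusted p = 0.249, exact permutation p = 0.0857) did not pass the threshold. The dim probe A_52_P543016 gave -5.11, -5.47, -4.99 and -4.69 in WT hearts and -4.52, -4.57, -4.53 and -4.61 in SIRT1 KO hearts. Here the WT hearts were scattered (SD 0.32) and the SIRT1 KO hearts lay close together (SD 0.04). The difference was 0.51 (SE 0.15, adjusted p = 0.0857), and it passed once WT heart 4, the WT heart nearest to the SIRT1 KO hearts, was left out (0.63, adjusted p = 0.032). It was 0.25 with the normexp background correction (adjusted p = 0.112), 0.30 with quantile normalization (0.254) and 0.29 without scaling (0.133). The third Cacna1h probe, A_52_P611158, was well above background in 1 of 8 hearts, SIRT1 KO heart 2.

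Cacna1c encodes the main L-type pore of working cardiomyocytes. Its probe A_51_P376996 gave 0.47, 0.21, 0.49 and 0.65 in WT hearts and 0.94, 0.71, 0.67 and 0.92 in SIRT1 KO hearts. Its probe A_52_P25903 gave 0.14, -0.13, 0.06 and 0.17 in WT hearts and 0.69, 0.36, 0.31 and 0.67 in SIRT1 KO hearts. On both probes the genotypes did not overlap, WT heart 2 was the lowest of all, and SIRT1 KO hearts 1 and 4 were the highest. The differences were 0.35 (SE 0.11, 95% confidence interval 0.10 to 0.60, adjusted p = 0.114) and 0.45 (SE 0.11, 0.19 to 0.70, adjusted p = 0.0622), and neither passed the adjusted threshold. The exact permutation p was 0.0286 for each. Any probe without overlap gives this value, so it only restates that the genotypes did not overlap. In linear terms the SIRT1 KO means were 1.27 ± 0.06 and 1.37 ± 0.09 times the WT means (SEM, n = 4). The second probe was the one nearest to a call after Cacna1g. It passed with the replicate number as a block (adjusted p = 0.0418), with array weights (0.0404), among probes above background on all arrays (0.0494), with the normexp background correction (0.0158) and without SIRT1 KO heart 3 (difference 0.51, adjusted p = 0.0385). With median scaling the probes A_51_P376996 and A_52_P25903 differed by 0.22 and 0.32 (adjusted p = 0.206 and 0.108), and without scaling by 0.13 and 0.23 (adjusted p = 0.427 and 0.225).

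Cacna1d encodes the L-type pore of the sinoatrial node and atria, which opens at more negative potentials than Cacna1c. Its transcript was dim throughout: 3 of its 4 probes, all assigned to one transcript accession, were not well above background in any heart. The fourth, A_51_P251213, carries another accession and gave -3.90, -3.87, -3.87 and -4.29 in WT hearts and -3.53, -3.33, -3.77 and -3.56 in SIRT1 KO hearts. All SIRT1 KO hearts were above all WT hearts, and WT heart 4 stood apart below the other 3. The difference was 0.44 (SE 0.13, adjusted p = 0.0893, exact permutation p = 0.0286), and 0.33 without WT heart 4. It passed with array weights (adjusted p = 0.0453) and with normexp (0.0143), and differed by 0.29 with quantile normalization (adjusted p = 0.182) and by 0.22 without scaling (0.347).

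**Figure D2:**
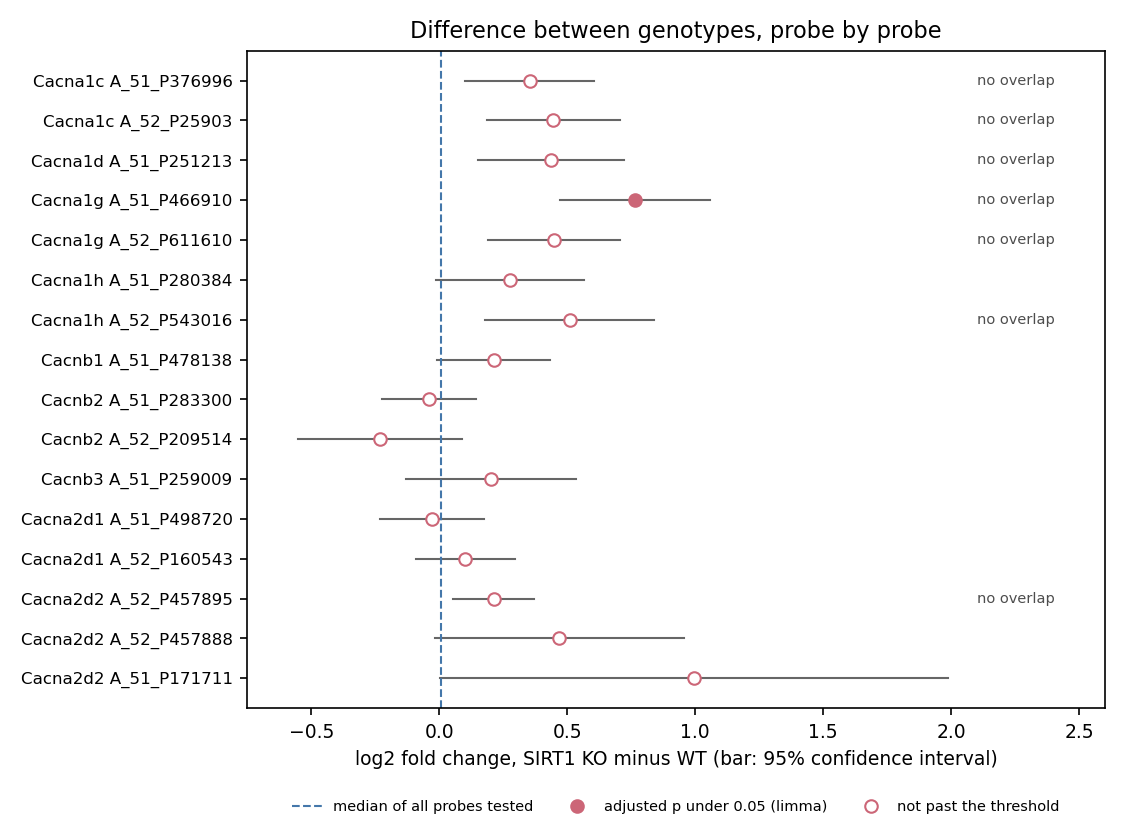
Log2 fold change (SIRT1 KO minus WT) of each of the 16 tested probes, with its 95% confidence interval from limma. The dashed line is the median of all 25615 tested probes (0.01), the filled point passed an adjusted p of 0.05, and "no overlap" marks the 7 probes on which every SIRT1 KO heart was above every WT heart.

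The beta subunits gave no difference that exceeded the spread. Cacnb2 encodes the main cardiac beta subunit. Its brighter probe, A_51_P283300, ranged from -0.09 to 0.09 in WT hearts and from -0.12 to 0.10 in SIRT1 KO hearts. This was the most even of the beta probes, with a difference of -0.04 (SE 0.08, 95% confidence interval -0.22 to 0.14, adjusted p = 0.807). The dimmer Cacnb2 probe, A_52_P209514, gave -3.70, -3.19, -3.37 and -3.50 in WT hearts and -4.00, -3.53, -3.49 and -3.67 in SIRT1 KO hearts. Its difference was -0.23 (SE 0.14, adjusted p = 0.378), and -0.12 without SIRT1 KO heart 1 or -0.15 without WT heart 2. It was -0.36 with median scaling, -0.36 with quantile normalization, -0.34 with cyclic loess and 0.02 with normexp. Without scaling it was -0.45 and passed as lower (limma adjusted p = 0.0451). The 2 Cacnb2 probes did not differ from each other past the threshold (-0.19, SE 0.18, adjusted p = 0.639).

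Cacnb1, the beta subunit of skeletal muscle L-type channels, gave -2.16, -2.27, -2.21 and -2.18 in WT hearts and -1.94, -1.96, -1.83 and -2.25 in SIRT1 KO hearts on its 1 probe. Of the SIRT1 KO hearts 3 were above every WT heart and heart 4 was among the WT values. The difference was 0.21 (SE 0.10, 95% confidence interval -0.01 to 0.43, adjusted p = 0.247). Cacnb3, a beta subunit known from neurons and smooth muscle, ranged from -1.89 to -1.20 in WT hearts and from -1.37 to -1.09 in SIRT1 KO hearts. Its difference was 0.20 (SE 0.15, adjusted p = 0.458), and 0.06 without WT heart 2, the lowest.

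Cacna2d1 encodes the main alpha2delta subunit of heart and skeletal muscle. Its brighter probe, A_51_P498720, ranged from 0.53 to 0.81 in WT hearts and from 0.53 to 0.75 in SIRT1 KO hearts. The genotypes covered the same range, with a difference of -0.03 (SE 0.09, 95% confidence interval -0.23 to 0.17, adjusted p = 0.880). Its dimmer probe, A_52_P160543, ranged from -1.70 to -1.57 and from -1.67 to -1.34, with a difference of 0.10 (SE 0.08, adjusted p = 0.520).

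Cacna2d2 encodes an alpha2delta subunit best known from cerebellar neurons. Its brightest probe, A_52_P457895, gave -0.07, 0.05, -0.02 and 0.10 in WT hearts and 0.17, 0.26, 0.29 and 0.20 in SIRT1 KO hearts. The genotypes did not overlap, and this probe had the smallest standard error of the 16. The difference was 0.21 (SE 0.07, 95% confidence interval 0.05 to 0.37, adjusted p = 0.127, exact permutation p = 0.0286). The difference was 0.08 with median scaling and turned to -0.0067 without scaling. Probe A_52_P457888 gave -0.76, -0.28, -0.93 and -0.57 in WT hearts and -0.14, 0.14, -0.76 and 0.12 in SIRT1 KO hearts. Hearts with replicate number 3 were the lowest of each genotype. The difference was 0.47 (SE 0.21, adjusted p = 0.247), and without SIRT1 KO heart 3 it was 0.67 and passed (adjusted p = 0.0461). The dim probe A_51_P171711 differed by 1.00, the largest value of the 16, but its hearts were scattered over more than this within each genotype (-5.89 to -4.19 in WT, -4.77 to -3.31 in SIRT1 KO), and the difference did not pass (SE 0.44, adjusted p = 0.231). With normexp it was 0.40 (SE 0.15, adjusted p = 0.102). Signals of different probes are not compared as levels, because each probe has its own brightness per molecule.

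Where a gene had more than 1 tested probe, the probes were also compared with each other. None of the 7 such comparisons in the channel genes passed in limma over all 6636 pairs (0.814% of pairs passed), and 1, that of Cacna1g, had an unadjusted p under 0.05. In size they ran from -0.32 for Cacna1g to 0.78 for the dim Cacna2d2 probe against the brightest (SE 0.45).

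The rest of the channel family was largely below the reach of the array. Of 17 other subunit genes, 15 had a probe and 4 were tested by their brightest probe, all 4 with a positive difference. The 11 others, among them the neuronal pore genes Cacna1b and Cacna1e, the T-type gene Cacna1i and 6 gamma subunit genes, were not well above background on 4 arrays. Cacna1s, the L-type pore of skeletal muscle, gave -2.63, -2.94, -2.69 and -2.55 in WT hearts and -2.29, -2.21, -2.08 and -2.27 in SIRT1 KO hearts. The genotypes did not overlap, and Cacna1s rose by 0.49 (SE 0.10, adjusted p = 0.0256). That call was lost, at an adjusted p of up to 0.0716, without WT heart 1, WT heart 3, SIRT1 KO heart 1 or SIRT1 KO heart 2. Cacng6, a gamma subunit of striated muscle, differed by 0.53 (SE 0.15, adjusted p = 0.0793). It passed in 3 of 11 other processings: the replicate number as a block (adjusted p = 0.0346), normexp (0.0392) and array weights (0.0429). Of the 8 fits without 1 array it passed in 1, that without SIRT1 KO heart 4 (0.66, adjusted p = 0.0149). The Cacna1s call was also lost in 7 of the other 11 processings, quantile normalization and the analysis of variance among them. By their brightest probe 2 of these 4 genes and 4 of the 9 channel genes had an unadjusted p under 0.05, against 20.4% of all genes, and 4.58% of all genes passed the adjusted threshold.

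Channel partners were split evenly. These 40 genes encode kinases, phosphatases, anchoring proteins, small G proteins and calmodulins known to bind or modify the channels, and 38 were tested, 18 with a positive and 20 with a negative difference (median -0.01, the same as over all 13594 genes). Camk2g, a subunit of calcium/calmodulin-dependent kinase II, gave 3.43, 3.29, 3.39 and 3.40 in WT hearts and 3.95, 3.90, 3.83 and 3.72 in SIRT1 KO hearts. It rose by 0.47 (SE 0.08, adjusted p = 0.00955) with no overlap and was the 1 of the 38 partners that passed, against 4.58% of all genes. Camk2g passed in 8 of 8 fits without 1 array, though not without scaling between arrays (0.26, adjusted p = 0.0880). The next by p was Prkar2a, a regulatory subunit of protein kinase A, at -0.27 (SE 0.08, adjusted p = 0.105), which passed as lower with median scaling (-0.40, adjusted p = 0.0341) and without scaling (-0.49, 0.0142).

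The genes that handle calcium inside the cell were also split, 13 positive and 11 negative of the 24 measured of 25 listed (median 0.01). Atp2a3, a calcium pump of the endoplasmic reticulum known from non-muscle cells, gave -2.98, -3.26, -3.09 and -3.11 in WT hearts and -2.51, -2.55, -2.54 and -2.79 in SIRT1 KO hearts. It rose by 0.51 (SE 0.09, adjusted p = 0.0171) and was the 1 gene of the 24 that passed, against 4.58% of all genes. Atp2a3 had adjusted p values between 0.0518 and 0.0535 without WT heart 3, SIRT1 KO heart 1 or SIRT1 KO heart 2. It did not pass with quantile normalization, without scaling or in the analysis of variance either. S100a1, a calcium sensor of cardiomyocytes, differed by -0.27 (SE 0.09, adjusted p = 0.125), and passed as lower without scaling (-0.49, adjusted p = 0.0132), with normexp (0.0408), with array weights (0.0430) and without SIRT1 KO heart 3 (-0.34, 0.0280).

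**Figure D3:**
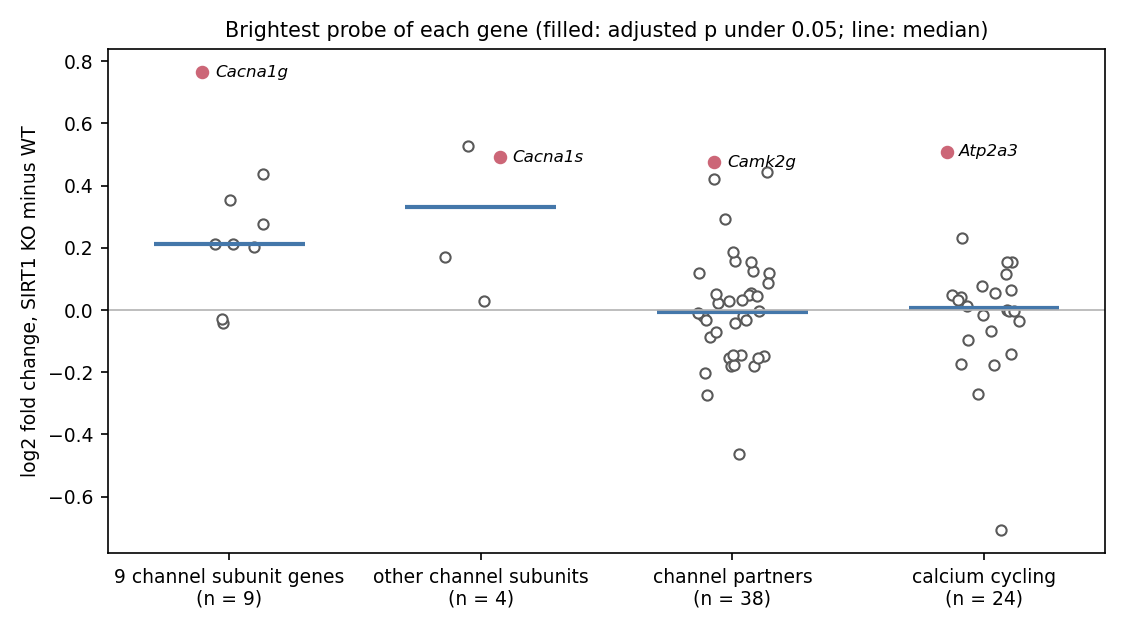
Log2 fold change (SIRT1 KO minus WT) of the brightest probe of each tested gene in 4 gene lists; each circle is a gene, filled where the limma adjusted p was under 0.05, and the blue line is the median of the list. The 9 channel subunit genes have a median of 0.21, 7 of them above 0, and the partner and calcium cycling lists have medians of -0.01 and 0.01.

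Cell type markers were read beside these values as whole lists, each marker by its brightest probe and each list also as the sum of its linear signals relative to the 75th percentile. All 15 cardiomyocyte markers were measured, 11 with a positive and 4 with a negative difference and none passing, and the sum ran from 2123 to 2332 in WT hearts and from 2212 to 2614 in SIRT1 KO hearts. Of 9 ventricular markers 8 were measured, 7 positive and none passing, and their sum was higher in every SIRT1 KO heart (917 to 995 in WT, 1033 to 1243 in SIRT1 KO). Of 12 atrial markers 11 were measured, 10 of them negative. The atrial sum overlapped, from 475 to 721 in WT hearts and from 331 to 707 in SIRT1 KO hearts. How the ventricular and atrial portions of the hearts bear on the channel values was not tested.

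T-type pores and Cacna1d are best known from pacemaker cells and neurons. Of 14 node and conduction markers 11 were measured, 4 positive and 7 negative, with Cpne5 passing as higher (0.58) and Cntn2 as lower (-1.26); the pacemaker genes Shox2 and Isl1 were not above background, and the sums overlapped (26.0 to 31.7 in WT, 26.3 to 29.5 in SIRT1 KO). Of 19 neuron markers 9 were measured, 7 positive. The other 10, among them Th, Dbh and Chat, which define autonomic neurons, were not above background, and the sums overlapped (2.22 to 2.27 and 2.03 to 2.29). Of 8 glial markers 5 were measured, all positive, with the neural crest and glial factors Sox10 (0.80) and Foxd3 (0.60) passing as higher, and Erbb3 and Cdh19 not above background. The glial sum ran from 1.70 to 2.11 in WT hearts and from 2.12 to 2.80 in SIRT1 KO hearts, so that it was higher in each of the latter. The part of glial cells in the channel values was not tested.

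Skeletal muscle markers matter for Cacna1s and Cacnb1. Of 14 such markers 9 were measured, 7 positive, with Myog (0.52) and Tnni2 (0.62) passing as higher, while Myod1, Myf5, Myf6, Chrna1 and Chrnd were not above background. The sums overlapped, from 138 to 169 in WT hearts and from 145 to 178 in SIRT1 KO hearts. Smooth muscle (10 of 10 measured, 2 positive), fibroblast and epicardial (10 of 10, 4 positive) and endothelial markers (10 of 10, 1 positive) had no gene that passed. All 9 measured liver markers of 11 were positive (median 1.33) with none passing, and the liver sum was spread unevenly over the SIRT1 KO hearts: 120 in heart 1 and 63.2 in heart 4, against 19.0 and 13.4 in hearts 2 and 3 and between 11.4 and 28.0 in WT hearts. SIRT1 KO hearts 1 and 4 were also the highest on both Cacna1c probes, whereas on the Cacna1g probe that passed heart 2 was the highest. Without heart 1 the differences were 0.76 for Cacna1g and 0.31 and 0.39 for the Cacna1c probes A_51_P376996 and A_52_P25903, and without heart 4 they were 0.76, 0.32 and 0.39. The part of liver RNA in the channel values was not tested. None of the 7 lung markers was above background, 2 of 10 thymus markers were measured with none passing, and of 10 erythroid markers 6 were measured, 3 positive, with the embryonic globin Hbb-y passing as higher (0.92).

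The genes whose pattern over the 8 hearts was closest to a channel probe were found from the root mean square difference between the centred log2 values, over 13535 genes. For the passing Cacna1g probe they were Card14 (0.11), the vomeronasal receptor gene Vmn1r25 (0.13) and 4933432I09Rik (0.13). All of these were read by dim probes, with log2 signals of -5.26 to -3.17. Their differences between genotypes were 0.60 to 0.88. A choice by likeness to a probe that differs between genotypes favours such genes, so this is not separate evidence. For the brighter Cacna1c probe the closest genes were Acaa1b (0.05), Itga3 (0.05) and Plxnb3 (0.07), with differences between genotypes of 0.26 to 0.38, none past the threshold. All hearts share their slide with their genotype, so genotype and slide cannot be told apart in this likeness either.

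**Figure D4:**
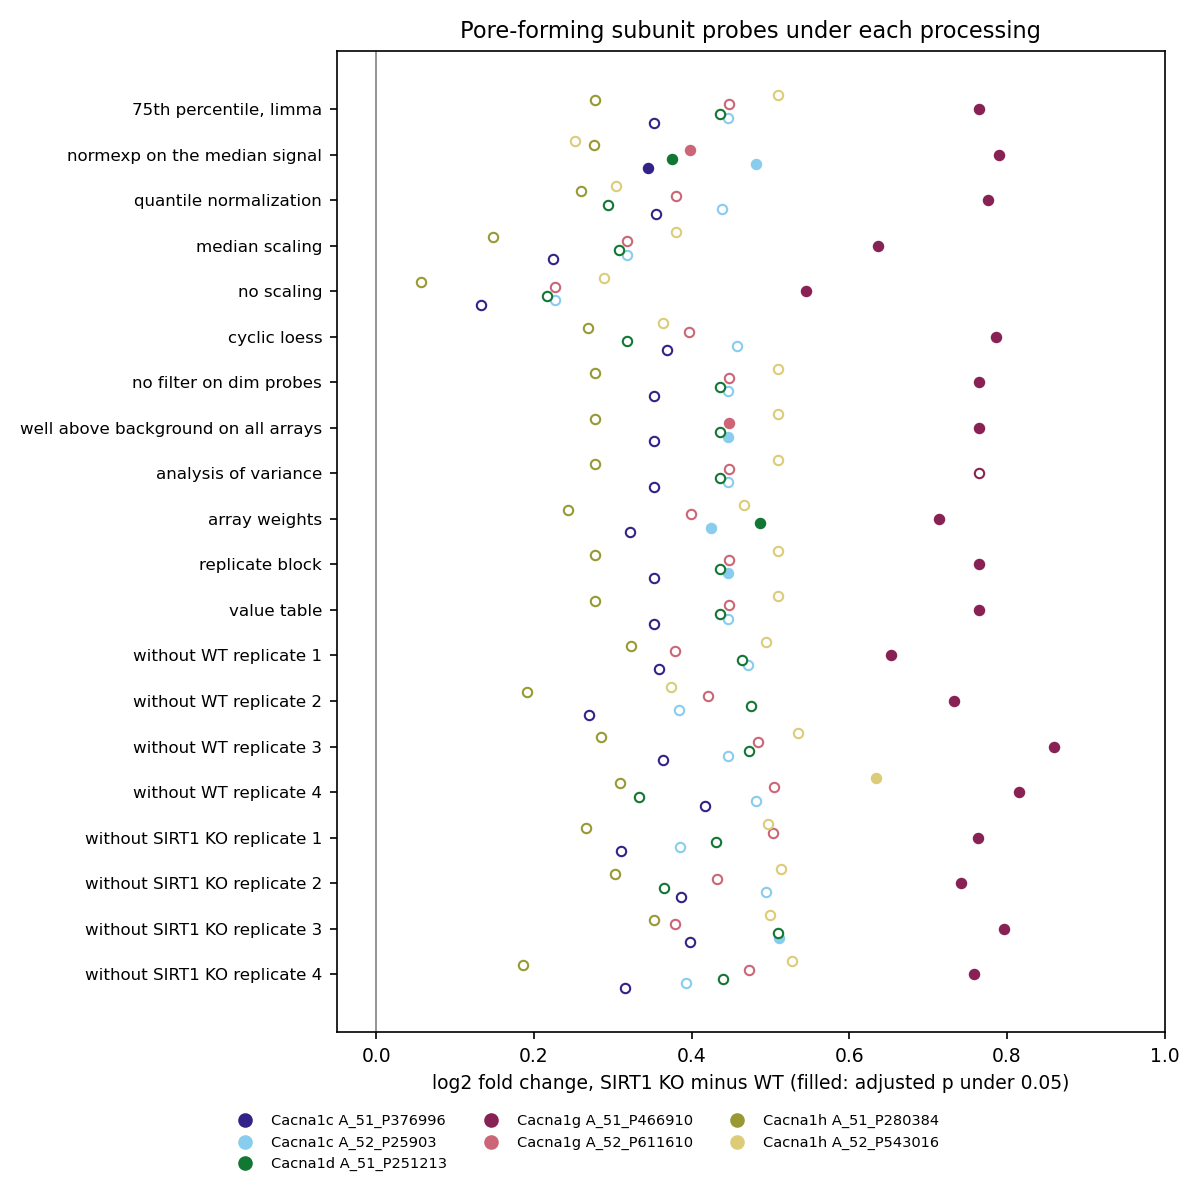
Log2 fold change (SIRT1 KO minus WT) of the 7 pore subunit probes under each processing, with 1 row of points per processing (spread vertically so that probes do not hide one another) and 1 color per probe, filled where the adjusted p was under 0.05. All 7 probes stay above 0 in every row shown, and the brighter Cacna1g probe is filled in every row but the analysis of variance.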

How the data were processed

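The authors deposited Agilent Feature Extraction output for 8 one-color arrays (500 ng total RNA per heart), holding the intensity of each spot after background subtraction with no scaling between arrays. The file headers name version 12.0.0.7 and build mm9. The deposited table of intensity values equals the processed signal in 100% of spots. Here log2 of the processed signal minus the array's 75th percentile was taken, without control and outlier spots, and spots of a probe were averaged. Probes were named by accession through RefSeq names of GRCm38.p6, which named 28223 of them (68.5%). No coordinates were used. Probes well above background on at least 4 arrays were fitted with limma 3.58.1 in R 4.3.3, WT against SIRT1 KO, with Benjamini-Hochberg adjustment at 0.05 over all tested probes. For single probes an exact permutation test (two-sided, 70 splits) was added, and no p was adjusted over the channel probes alone. The study's methods name Partek's analysis of variance, which was run here with genotype as its only factor.

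Genes named are the 9 members and Sirt1 on every probe, in 3 related lists those that passed and the 2 with the smallest p, and the 3 genes closest in pattern. Marker genes that passed or define a cell type were named after their values were seen, and some of them are not reported here. The members and lists were chosen with earlier results of these data known. Alternatives covered background correction, scaling, filter, test, array weights, threshold, a replicate block and each array left out. Each array is 1 embryo's heart, and hearts were not split by sex. On simulated arrays of 25535 probes, with a log2 fold change of 1 given to 200, limma recovered 79% and 4.82% of its calls were false. The analysis of variance recovered 62.5%. That change is larger than the 0.28 to 0.76 of the pore probes, and the simulated arrays held no slide effect. These shares therefore do not tell how often differences of the size seen here would be recovered. Python 3.11.15, numpy 2.4.6, pandas 2.3.3 and matplotlib 3.10.9 were used.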

Additional observations from a re-analysis of the deposited data

Results flagged for a closer look

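Among 36 groups of 4 hearts (each genotype on each tested probe of the 9 genes and Sirt1), 3 held a heart whose gap to its nearest neighbour, as a share of the group's range, exceeded Dixon's 95% critical value. Chance flags about 1 in 20 groups. On Cacna1d probe A_51_P251213, WT heart 4 lay at -4.29 against -3.90 to -3.87 in the other 3 WT hearts (gap 0.913 of the range). On the brighter Cacnb2 probe A_51_P283300, SIRT1 KO heart 1 lay at 0.10 against -0.12 to -0.10 in the others (0.905). On the dimmer Cacna2d1 probe A_52_P160543, WT heart 1 lay at -1.70 against -1.58 to -1.57 in the others (0.882). None of these 3 probes passed the threshold between genotypes.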

How the results depend on the processing

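The log2 fold change of all 7 pore subunit probes stayed positive in every processing tried. The brighter Cacna1g probe lost its call in the analysis of variance (0.76, adjusted p = 0.0590) and at a threshold of 0.01 (0.76, adjusted p = 0.0127). Of the 16 channel probes, 1 passed; this became 5 with normexp on the median signal (an alternative chosen after seeing the data; both Cacna1c and both Cacna1g probes and Cacna1d A_51_P251213), 2 without scaling, 3 of 15 with probes above background on all arrays (1185 of 23404 probes in all), 0 in the analysis of variance, 3 with array weights, 0 at 0.01, and 1 to 3 without 1 array (2 without WT heart 4, 3 without SIRT1 KO heart 3). Over all probes 1250 passed, against 2566 with normexp, 6352 without scaling, 546 in the analysis of variance, 2131 with array weights, 412 at 0.01, and 657 (without WT heart 3) to 1825 (without SIRT1 KO heart 3) without 1 array. The share of calls that were higher was 81.4%, against 63.9% with quantile normalization, 38.1% with median scaling, 10.1% without scaling, 70.5% with cyclic loess and 89.3% without the filter. Median scaling moved the median of all probes to -0.12 and no scaling to -0.21; 13 of the 16 channel probes lay above that median in both, while 12 and 9 were above 0.

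Among other subunit genes 1 passed, 2 with normexp or array weights, 0 with quantile normalization, median scaling, no scaling, cyclic loess, no filter, the analysis of variance or a threshold of 0.01, and 0 to 2 without 1 array. Among partners 1 passed, 3 with median scaling and 5 without scaling. Among calcium cycling genes 1 passed, 2 with normexp or array weights, 4 without scaling, 0 with quantile normalization, the analysis of variance or 0.01, and 0 to 2 without 1 array. Signs turned for Cacnb1 (-0.0070), Cacnb3 (-0.017) and Cacna2d2 A_52_P457895 (-0.0067) without scaling, for Cacnb2 A_52_P209514 with normexp (0.021), for Cacna2d1 A_52_P160543 with median scaling (-0.026) and without scaling (-0.12), and for Cacna2d1 A_51_P498720 without WT heart 2, SIRT1 KO heart 2 or SIRT1 KO heart 3 (-0.070 to 0.024 over the fits without 1 array). None of these passed; the 1 other call without scaling was Cacnb2 A_52_P209514 as lower (-0.45, adjusted p = 0.0451). The causes were not tested.

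With the replicate number as a block, 2 channel probes passed (the brighter Cacna1g probe and Cacna1c A_52_P25903), 2 partner genes and 1185 probes in all. Cacna1s lost its call (adjusted p = 0.0530) and Cacng6 gained one (adjusted p = 0.0346). Deviations of same-numbered hearts correlated at 0.204, 0.207, 0.0562 and 0.141, 3 of the 4 above 0.1, and every heart correlated best with its own number, a hint from the data and not from the design. Because 1 pair was below 0.1 and the labels tie no number to a litter or batch, the numbers were not used as pairs. No slide block could be fitted, because each slide holds 1 genotype. The planned normexp on the mean signal needs a mean signal column that was not used here, so it was not run. Probes near background, among them 3 of Cacna1d, have no measurable difference at this signal.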
